A study of Mus musculus with 9 samples.

Results

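The control group of this series is adult mouse monocytes kept in control buffer for 4 h, washed, and taken for RNA without any platelets added. It holds 3 of the 9 libraries, control replicates 1, 2 and 3, and every library with the treatment label for control monocytes belongs to it. The other 6 libraries, from monocytes given adult or P7 platelets, are not described here, and no contrast with them was made. Strain, genotype, sex, the tissue the monocytes came from and the way they were purified are not stated in any source used here, and neither is whether the 3 libraries came from separate animals or cultures. The spread between them may therefore be technical, and no p-value is given. Each library is poly(A)-selected, strand-marked RNA read as 75 nt single ends.

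Monocytes are blood cells of the myeloid lineage that form in the bone marrow, circulate, and enter tissues, where they can become macrophages or dendritic cells. In the mouse, classical monocytes carry Ly6C and the chemokine receptor Ccr2 and leave the marrow along Ccr2 ligands, while nonclassical monocytes carry little Ly6C, much Cx3cr1, depend on Nr4a1 and patrol vessel walls. The ETS factor PU.1, encoded by Spi1, works with C/EBP, Irf and Klf factors to set the monocyte programme, and signals through the colony-stimulating factor 1 receptor keep the cells alive.

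Totals were 36368724, 35314701 and 37065564 counts in replicates 1, 2 and 3. Levels are given as CPM, counts per 1000000 of the library total. Genes are ranked by CPM as shares of the counts, and their levels are compared with each other only as RPKM, CPM per kilobase of the gene's joined exons in GENCODE M21. A gene counts as detected at 1 CPM or more in all 3 libraries, which 11051 of 55367 symbols were, 10298 of them protein coding. Of the detected genes, 8216 reached 10 CPM, 2382 reached 100 CPM and 71 reached 1000 CPM in all 3 libraries. The median detected gene stood at 33.9 CPM or 7.66 RPKM. A count of 0 allows a level of up to 0.0825, 0.0850 and 0.0809 CPM in replicates 1, 2 and 3, taking 3 counts as the floor, and that limit covers counting error only.

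Promoter letters of classical monocyte genes are shown because 5 of the 13 classical genes with a RefSeq promoter window (GRCm38.p6) held the letters GAGGAAGT on one strand or the other, the purine-rich core that PU.1 is known to bind. The windows span 250 bases before to 50 bases after a start site. The letters were in 38.5% of those classical genes, in 3.69% of all 27025 genes with a window and in 4.13% of the 8666 detected genes with one. One of 17 nonclassical genes (Adgre4), 1 of 16 pan-monocyte genes (Ctss) and 0 of 21 lineage factor genes held them. The printed stretches end 30 bases after the start, run 5′ to 3′ on the gene's strand, and carry the match in capitals.
S100a4 (chr3:90603520-90603799, + strand): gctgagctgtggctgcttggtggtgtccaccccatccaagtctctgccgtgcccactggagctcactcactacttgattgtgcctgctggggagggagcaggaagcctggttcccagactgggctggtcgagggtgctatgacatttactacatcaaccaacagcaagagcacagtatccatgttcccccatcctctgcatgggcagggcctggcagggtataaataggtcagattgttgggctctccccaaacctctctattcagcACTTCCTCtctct
S100a8 (chr3:90668821-90669100, + strand): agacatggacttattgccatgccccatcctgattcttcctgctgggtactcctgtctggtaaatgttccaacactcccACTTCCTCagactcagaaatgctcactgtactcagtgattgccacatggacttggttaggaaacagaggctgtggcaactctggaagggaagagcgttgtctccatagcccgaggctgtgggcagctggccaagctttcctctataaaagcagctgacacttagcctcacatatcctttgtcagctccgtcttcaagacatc
Mmp8 (chr9:7558179-7558458, + strand): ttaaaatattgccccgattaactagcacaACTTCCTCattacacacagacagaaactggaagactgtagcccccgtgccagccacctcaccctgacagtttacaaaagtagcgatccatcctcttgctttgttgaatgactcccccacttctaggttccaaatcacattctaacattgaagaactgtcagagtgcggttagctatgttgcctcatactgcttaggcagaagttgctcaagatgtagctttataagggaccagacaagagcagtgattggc
F13a1 (chr13:37049184-37049463, - strand): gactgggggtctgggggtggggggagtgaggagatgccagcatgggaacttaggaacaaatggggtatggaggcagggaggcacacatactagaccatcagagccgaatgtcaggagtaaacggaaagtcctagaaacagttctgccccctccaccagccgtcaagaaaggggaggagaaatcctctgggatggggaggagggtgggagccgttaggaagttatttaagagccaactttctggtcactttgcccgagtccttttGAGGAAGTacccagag
Ly6c2 (chr15:75111908-75112187, - strand): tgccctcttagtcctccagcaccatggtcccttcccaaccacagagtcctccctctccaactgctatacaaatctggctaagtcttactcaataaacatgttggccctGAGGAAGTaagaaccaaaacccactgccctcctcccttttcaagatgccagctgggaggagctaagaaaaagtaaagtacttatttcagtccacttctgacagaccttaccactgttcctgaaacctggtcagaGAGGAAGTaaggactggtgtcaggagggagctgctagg
The matches in S100a4, S100a8 and Mmp8 lie on the opposite strand, and those in F13a1 and Ly6c2 on the gene's own strand. Ly6c2 holds 2 matches, and S100a4 and F13a1 hold theirs just inside the transcribed part, 17 and 14 bases after the start. The letters TATAAA, the core of a TATA box, were in 5 of the 13 classical genes (Chil3, Mmp8, S100a4, S100a8 and S100a9), against 15.7% of all genes and 8.22% of detected genes. GGGCGG, the core of a GC box, was in 3 of the 13 (23.1%), in 38.2% of all genes and in 69.5% of detected genes. TTGCNNAA, where N is any base, was searched as well. It was in 4 of the 13 (30.8%), in 12.2% of all genes and in 10.1% of detected genes. A run of letters is not a binding site, and its absence from a window says nothing of the factor.

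Monocyte genes were detected in every library. Their lists were chosen with earlier results of these data known, so this is no test of the label. All 20 pan-monocyte genes and all 18 classical genes were detected, with median levels of 304 and 206 RPKM, against 7.66 RPKM for the detected genes. Csf1r, the receptor for colony-stimulating factor 1, stood at 2227, 2136 and 2246 CPM, so its libraries lay close together. Tyrobp and Fcer1g, the adaptor chains of activating myeloid receptors, were at 1305 ± 19.5 and 732 ± 11.7 RPKM (SD, n = 3). Mpeg1, a pore-forming protein of phagocytes, was at 619 ± 19.4 RPKM, and Ctss, a lysosomal protease of antigen processing, at 931 ± 28.1 RPKM (SD, n = 3). Aif1 was the lowest of the pan-monocyte genes, at 4.84 ± 0.630 RPKM (SD, n = 3).

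Lyz2, the lysozyme of myeloid cells, led both rankings. It stood at 19512, 18869 and 17370 CPM, with replicate 3 lowest, and at 14121 ± 835 RPKM (SD, n = 3). Its neighbour Lyz1 is nearly identical to it in sequence, so reads could pass between them, and Lyz1 was listed at 24.0, 23.1 and 26.2 CPM. After Lyz2 the ranking by CPM went to proteins of the extracellular matrix and of clotting. Fn1, fibronectin, stood at 14885, 16970 and 18925 CPM. Vcan, the proteoglycan versican, was at 6132, 6366 and 7060 CPM. Thbs1, thrombospondin 1, was at 4404, 6002 and 6970 CPM. For all of Fn1, Vcan and Thbs1 replicate 1 was the lowest library and replicate 3 the highest. F13a1, the A subunit of clotting factor XIII, varied little, at 3853, 3804 and 3654 CPM. Together the 10 leading genes took 7.42% of the counts, the 100 leading genes 20.05% and the 1000 leading genes 53.0%.

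**Figure D1:**
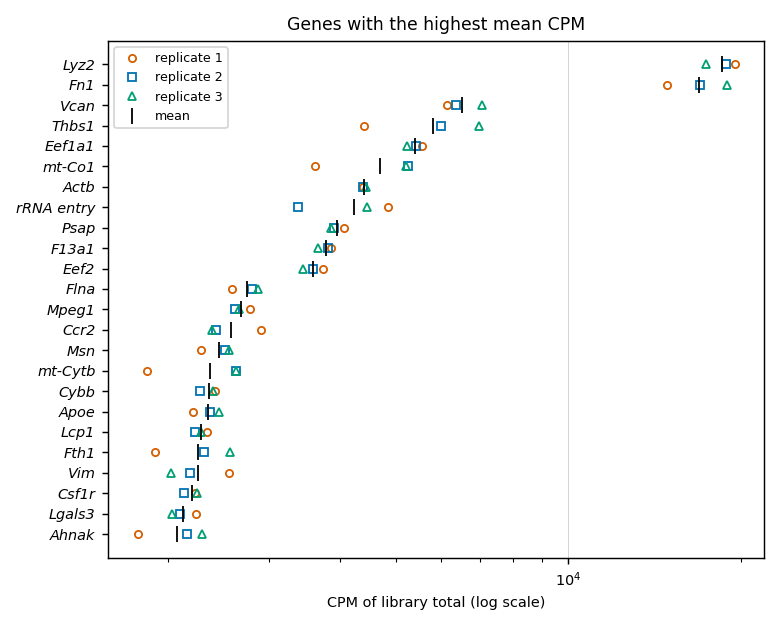
CPM of library total (log axis) of 24 of the 25 genes with the highest mean, with a symbol for each of the 3 control libraries and a bar for the mean. Lyz2 and Fn1 stand apart at the top, and replicate 1 is the lowest library for Fn1, Vcan, Thbs1 and both mitochondrially encoded genes shown.

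The other genes among the 25 were of several kinds. Translation was represented by the elongation factors Eef1a1 (5399 ± 171 CPM) and Eef2 (3584 ± 138 CPM; SD, n = 3). The cytoskeleton was represented by Actb, Flna, Msn, Lcp1, Vim and Ahnak, with Actb at 4387, 4375 and 4431 CPM. Phagocyte genes were Psap, the saposin precursor, at 3938 ± 104 CPM, Mpeg1, Cybb, Apoe and Lgals3 (2121 ± 105 CPM; SD, n = 3). Fth1, the ferritin heavy chain, stood at 1899, 2307 and 2561 CPM. An annotated rRNA gene on chromosome 17, carrying 0.485%, 0.338% and 0.446% of the counts in replicates 1, 2 and 3, was also among the 25, although the RNA was selected by its poly(A) tail. Length changes the ranking: only 12 of the 25 leading genes and 55 of the 100 leading genes were shared between the ranking by CPM and that by RPKM.

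Among classical markers, Fn1 (1449 ± 173 RPKM), Thbs1 (954 ± 213 RPKM), Chil3 (705 ± 127 RPKM) and F13a1 (559 ± 15.3 RPKM; SD, n = 3) led per length. Ccr2, which takes monocytes out of the marrow, stood at 2909, 2428 and 2388 CPM, highest in replicate 1. Ly6c2, which encodes the Ly6C surface protein, was at 464, 413 and 386 CPM, also highest in replicate 1. Cd14, the co-receptor for lipopolysaccharide, was at 845, 859 and 999 CPM. The neutrophil-type protease gene Mmp8 stood at 104, 65.6 and 66.7 CPM, 1.53 times as high in replicate 1 as in the mean of the other two libraries. S100a8 and S100a9, which form calprotectin and are known to be abundant in classical monocytes and neutrophils, were at 77.7 ± 3.11 and 122 ± 25.1 RPKM (SD, n = 3), under the classical median of 206 RPKM. S100a9 was lowest in replicate 1, at 49.7, 66.7 and 75.4 CPM. Fcgr1, the high-affinity IgG receptor, had the lowest level per length of the 18, at 14.3 ± 2.39 RPKM (SD, n = 3).

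Nonclassical markers were present at lower levels per length. Of 20 genes 19 were detected, and the median over all 20 was 19.8 RPKM. Gngt2 (155 ± 4.61 RPKM), Cx3cr1, the receptor for fractalkine (126 ± 6.09 RPKM), Cd9 (112 ± 12.4 RPKM) and Spn, the sialoglycoprotein CD43 (92.4 ± 2.43 RPKM; SD, n = 3), led the list. Cx3cr1 stood at 536, 575 and 588 CPM, and on the RPKM scale Ccr2 was at 381 ± 42.9 (SD, n = 3). Nr4a1, the nuclear receptor that nonclassical monocytes need, stood at 142, 162 and 196 CPM. Some genes often used to mark the nonclassical subset stood under the list median of 19.8 RPKM. Ace was at 8.05 ± 1.88 RPKM, Itgax at 5.56 ± 1.14 RPKM, Cd300e at 3.64 ± 0.971 RPKM and Treml4 at 15.0 ± 2.80 RPKM (SD, n = 3). Of these, Ace and Treml4 were above the 7.66 RPKM of the detected genes. Of the 19 detected nonclassical genes, 15 were lowest in replicate 1 and 2 were highest there, with a median ratio of replicate 1 to the mean of replicates 2 and 3 of 0.806. The classical list was split, with 9 genes (50%) highest and 7 (38.9%) lowest in replicate 1, at a median ratio of 1.06. Over all detected genes, the background for such counts here and below, replicate 1 was highest in 40.0% and lowest in 39.8%. In bulk RNA, fewer cells of a type and less RNA per cell cannot be told apart.

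**Figure D2:**
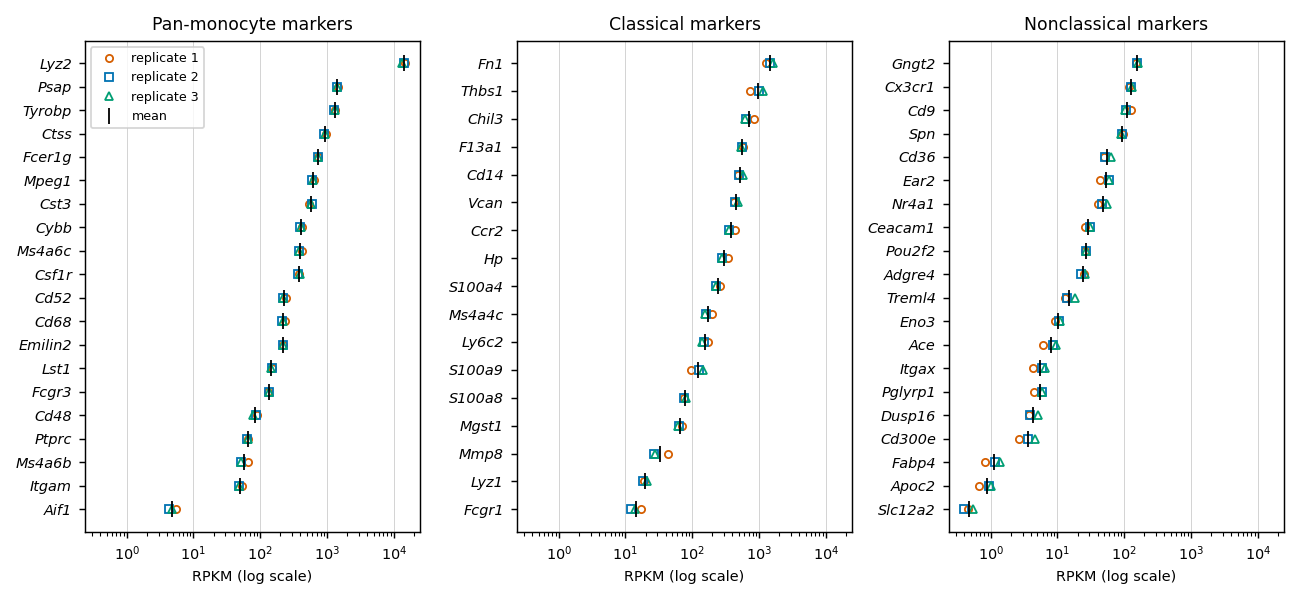
RPKM (log axis) of 20 pan-monocyte, 17 of the 18 classical and 20 nonclassical markers in the 3 control libraries, with a bar for the mean. The 3 symbols of a gene mostly overlap, and the nonclassical genes span from 155 RPKM for Gngt2 down to below 1 RPKM.

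Of 30 transcription factors of the monocyte lineage, 29 were detected, and Batf3, a factor of cross-presenting dendritic cells, was not, with 8, 8 and 5 counts. Per length the list was led by Irf5 (200.2 ± 1.0 RPKM), Spi1 (193 ± 2.94 RPKM) and Cebpb (150 ± 9.96 RPKM; SD, n = 3). Spi1 stood at 527, 524 and 512 CPM and Irf5 at 579, 585 and 581 CPM, so both varied by a few percent. Klf4, needed for Ly6C-high monocytes, was at 143, 152 and 143 CPM. Irf8, which directs progenitors to monocytes and dendritic cells, was at 178, 173 and 158 CPM. Zeb2, a repressor with long exons, stood at 920, 976 and 1034 CPM, which per length is 49.0 ± 2.86 RPKM (SD, n = 3). Replicate 1 was the lowest library for 18 of the 29 detected factors (62.1%) and the highest for 5 (17.2%). For all detected genes the shares were 39.8% and 40.0%. Stat3 was at 514, 602 and 608 CPM.

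Receptors for growth factors and cytokines were nearly all present, 28 of 30. Per length Csf1r (382 ± 10.2 RPKM) was followed by Tnfrsf1b, the second TNF receptor (334 ± 19.6 RPKM), and Ifngr1, the interferon gamma receptor (272 ± 2.69 RPKM; SD, n = 3). Tnfrsf1b stood at 1212, 1255 and 1358 CPM and Ifngr1 at 781, 766 and 776 CPM. Csf2rb, the shared chain for IL-3, IL-5 and GM-CSF, was at 124 ± 1.18 RPKM (SD, n = 3). Csf2ra, which pairs with Csf2rb for GM-CSF, reached 163 ± 3.27 RPKM, and Il6ra 59.1 ± 1.24 RPKM (SD, n = 3). Il27ra did not reach 1 CPM. For chemoattractants 21 of 28 receptors were detected. Ccr2 led, followed per length by Cxcr4, the marrow retention receptor, at 198 ± 26.8 RPKM (SD, n = 3). Cxcr4 was lowest in replicate 1, at 301, 382 and 388 CPM. Ptafr, C5ar1, Ccr1 and C3ar1, receptors for platelet-activating factor, complement fragments and inflammatory chemokines, lay between 16.7 and 60.2 RPKM. Ccr3, Ccr6, Cxcr3 and Cxcr6, receptors of eosinophils and lymphocytes, were below 1 CPM, Cxcr5 had 2 counts in every library, and Cxcr1 had 0.

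Adhesion molecules were represented by 22 of 25 genes. Itgb2, the beta 2 chain shared by the leukocyte integrins, stood at 1102, 1109 and 1144 CPM, with its partners Itgal at 128 ± 3.34 RPKM and Itgam at 49.5 ± 2.82 RPKM (SD, n = 3). Itga4, which binds VCAM-1, was at 851, 1010 and 1028 CPM, lowest in replicate 1. Selplg, the ligand for P-selectin on platelets and endothelium, was at 283, 278 and 271 CPM. Sele, the endothelial selectin, had 7, 4 and 4 counts.

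Pattern recognition receptors were detected for 28 of 31 genes. Per length the leaders were Clec4d (547 ± 41.4 RPKM), Cd14 (520 ± 49.2 RPKM), Clec4a1 (247 ± 2.83 RPKM), Clec7a, the beta-glucan receptor (244 ± 3.48 RPKM), and Clec4n (234 ± 31.1 RPKM; SD, n = 3). Tlr2, which senses bacterial lipoproteins, reached 182 ± 9.76 RPKM and Tlr13, which senses bacterial rRNA, 83.9 ± 1.18 RPKM (SD, n = 3). Tlr4, the lipopolysaccharide receptor, was lower per length, at 15.4 ± 3.18 RPKM (SD, n = 3). It stood at 106, 72.5 and 79.0 CPM, highest in replicate 1. Tlr3, Tlr11 and Tlr12 did not reach 1 CPM in every library. Of 28 Fc, complement and scavenger receptors 22 were detected, with Fcgr3, a low-affinity IgG receptor, at 134 ± 1.83 RPKM and Msr1, a scavenger receptor, at 52.9 ± 2.77 RPKM (SD, n = 3). Receptors of resident macrophages were at or near 0: Vsig4 had 0 counts in all libraries, Timd4 had 1, 3 and 3, and Marco 0, 2 and 1. Mertk, which takes up dying cells, had 15, 16 and 17 counts.

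Cytokine genes were detected only in part. Of 51, 27 were detected, 9 were below 0.1 CPM in all 3 libraries, and the median over the 51 was 1.05 RPKM. Il1b, the inflammasome-processed cytokine, led per length with 313 ± 40.5 RPKM (SD, n = 3). It stood at 547, 556 and 685 CPM, highest in replicate 3. The myeloid chemokines Ccl9 (227 ± 20.8 RPKM) and Ccl6 (180 ± 4.74 RPKM; SD, n = 3) followed, with Ccl9 at 765, 650 and 661 CPM. Tnf was detected at 57.5, 42.0 and 49.3 CPM. Csf1, the ligand of Csf1r, stood at 64.5, 107 and 98.9 CPM, lowest in replicate 1, at 17.1 ± 4.30 RPKM (SD, n = 3). Ifng, the cytokine of T and NK cells, and Ccl12 had 0 counts, and Ifnb1 and Il12b had 1 count in 1 library each. Of 34 secreted and granule proteins 32 were detected, with complement C3 at 1083, 1019 and 1009 CPM and the protease inhibitor Cst3 at 570 ± 31.8 RPKM (SD, n = 3), while complement factor Cfb had 1, 3 and 3 counts.

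Genes of lysosomes and of antigen presentation were all detected: 28 of 28 lysosomal genes, 20 of 20 for MHC class I and 15 of 15 for MHC class II. Psap (1435 ± 38.1 RPKM), Lamp1 (448 ± 12.7 RPKM) and the membrane protein Laptm5 (348 ± 15.6 RPKM; SD, n = 3) were high among the lysosomal genes, whose median was 80.9 RPKM. B2m, the light chain of MHC class I, reached 1484 ± 99.0 RPKM, and H2-D1 and H2-K1, whose reads can be shared between class I copies, 634 ± 16.4 and 262 ± 25.9 RPKM (SD, n = 3). Of the 20 class I genes 18 were highest in replicate 1. In the class II list the order was the other way, with 11 of 15 genes lowest and 4 highest in replicate 1. That list also held Cd40, Cd80, Cd83 and Cd86, which are costimulatory or maturation molecules rather than class II genes. Each of these was lowest in replicate 1. Cd74, the invariant chain, was at 510, 567 and 678 CPM and H2-Aa at 136, 166 and 198 CPM. Ifi30, a lysosomal thiol reductase, went against the list, at 405, 340 and 319 CPM.

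Interferon-stimulated genes were mostly low. All 24 interferon-stimulated genes were detected, but their median was 3.22 RPKM, under the 7.66 RPKM of detected genes. Ifitm3 (857 ± 30.6 RPKM), Ifitm2 (356 ± 7.80 RPKM) and the nucleotide hydrolase Samhd1 (109 ± 3.44 RPKM; SD, n = 3) led the list per length, and Ifi204, an AIM2-like DNA sensor, followed at 35.2 ± 2.84 RPKM (SD, n = 3). Of 29 immediate-early and heat-shock genes 28 were detected, led per length by the chaperones Hsp90ab1 (396 ± 21 RPKM) and Hspa8 (309 ± 15.2 RPKM; SD, n = 3). Fosl2, an AP-1 subunit, was at 558, 701 and 695 CPM, and Zfp36, which marks cytokine mRNAs for decay, at 558, 519 and 562 CPM. In the survival list all 23 genes were detected, and Mcl1, the BCL2 relative that myeloid cells depend on, led per length with 367 ± 9.73 RPKM (SD, n = 3), at 1218, 1260 and 1284 CPM.

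Glycolysis had 27 of 28 genes, with Pkm, pyruvate kinase, at 1952, 1798 and 1800 CPM. The missing glycolytic list member was Fbp1, an enzyme of gluconeogenesis, with 1 count in each library. Slc16a3, the lactate exporter, was lowest in replicate 1, at 564, 784 and 802 CPM. Gapdh, which has many processed copies that can share its reads, was listed at 374, 334 and 318 CPM. All 7 pentose phosphate genes were detected at a median of 69.3 RPKM, led per length by Taldo1 (178 ± 2.52 RPKM), Pgd (139 ± 1.17 RPKM) and G6pdx (132 ± 1.40 RPKM; SD, n = 3), the last of these the entry enzyme that makes NADPH. The glycolytic median was 12.2 RPKM, and that of the 26 genes of the tricarboxylic acid cycle list, all detected, 32.9 RPKM. Idh1, which makes NADPH in the cytosol and lies outside the cycle itself, led the cycle list per length with 150 ± 16.2 RPKM (SD, n = 3). It stood at 468, 399 and 384 CPM. NADPH oxidase and antioxidant genes were all detected, 28 of 28, with Cybb, the catalytic subunit of the phagocyte oxidase, at 406 ± 13.4 RPKM and its cytosolic partner Ncf1 at 201 ± 2.27 RPKM (SD, n = 3). Gpx1, which removes peroxide, was higher per length, at 533 ± 3.93 RPKM (SD, n = 3).

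Of 81 nuclear-encoded respiratory chain genes 75 were detected, while Cox7b2, Cox8b and Cox8c, isoforms of other tissues, had 0 counts. Atp5a1 and Atp5b, the core subunits of ATP synthase, were at 203 ± 6.69 and 140 ± 5.25 RPKM (SD, n = 3). Mitochondrially encoded transcripts took 1.17%, 1.62% and 1.60% of the counts in replicates 1, 2 and 3. Mt-Co1 stood at 3615, 5238 and 5206 CPM and mt-Cytb at 1838, 2626 and 2625 CPM, so for both replicate 1 lay well below the other two, which nearly coincided. The nuclear subunits of the same chain moved the other way, 57 of 75 being highest in replicate 1 and 4 lowest, by a small margin (median ratio 1.06). Among mitochondrially encoded genes, mt-Co2, mt-Co3, mt-Atp6, mt-Atp8 and mt-Nd4l were listed at 0 in all libraries beside a mean of 4687 CPM for mt-Co1, and mt-Nd3 had 4, 8 and 3 counts. Genes of this kind can share reads with near-identical nuclear copies, so these zeros cannot be read as levels, and the cause was not tested.

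Lipid and iron genes were led by Apoe, the apolipoprotein that carries cholesterol out of macrophages, at 2212, 2363 and 2458 CPM, and by Ftl1 (1034 ± 29.4 RPKM) and Fth1 (650 ± 96.2 RPKM; SD, n = 3), the ferritin chains, whose processed copies can share reads. Of 35 lipid genes 32 were detected, with Alox5ap, which serves leukotriene synthesis, at 406 ± 30.7 RPKM (SD, n = 3), and Ltc4s, which makes leukotriene C4, at 1, 3 and 7 counts. All 20 cholesterol synthesis genes were detected at a median of 7.90 RPKM, near that of the detected genes. Every one of the 20 was highest in replicate 1, at a median ratio of 1.25. Hmgcs1, an early enzyme of the mevalonate pathway, stood at 142, 109 and 117 CPM. Of 22 amino acid genes 19 were detected, led per length by Sat1, which acetylates polyamines (254 ± 7.70 RPKM), and the transporter Slc38a2 (87.8 ± 2.50 RPKM; SD, n = 3). The enzymes that mark activated macrophages were at the bottom: Arg1 had 5, 11 and 15 counts, Nos2 had 1, 2 and 0, and Ido1 had 7, 2 and 5. Of 20 iron and haem genes 16 were detected, with Hmox1, which breaks down haem, at 222, 247 and 264 CPM.

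Cell cycle genes were fully represented. All 22 were detected at a median of 23.2 RPKM, about the level of the lineage factors (22.6 RPKM). Mki67, the proliferation marker, was at 1189, 1148 and 1154 CPM, and Top2a, which untangles replicated DNA, at 836, 793 and 745 CPM. Per length Mki67 stood at 116 ± 2.18 RPKM, Top2a at 87.8 ± 5.02 RPKM and Ccna2, the S-phase cyclin, at 59.1 ± 5.20 RPKM (SD, n = 3). Bulk RNA does not say which cells carried these transcripts. Genes of early myeloid progenitors were all detected too, 10 of 10, but at a median of 3.18 RPKM. Prtn3, Mpo and Elane, proteases and peroxidase of promyelocyte granules, were at 69.9, 46.8 and 40.4 CPM, at 22.96, 20.2 and 16.9 CPM and at 22.5, 15.9 and 13.8 CPM, each highest in replicate 1. Over the 10 genes 6 were highest and 2 lowest in replicate 1, against 40.0% and 39.8% of all detected genes. Cd34, the stem and progenitor cell antigen, went against those granule genes, at 20.7, 24.2 and 19.9 CPM. Of 84 ribosomal protein genes 80 were detected at a median over the 84 of 140 RPKM, and Rpl4 stood at 1835, 1795 and 1720 CPM.

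Markers of other cell types were counted to see what else the libraries carried. Of 19 T cell genes only Cd28 was detected, and the 19 summed to 8.25, 6.99 and 7.28 CPM, with Cd3e at 0, 2 and 2 counts. Of 14 NK cell genes only Klrd1 (20.2, 29.0 and 24.2 CPM) and Klrk1 (17.9, 27.1 and 24.1 CPM) were detected. Ncr1, the defining NK receptor, had 0 counts in all libraries. B cell genes were detected for 3 of 15, namely Spib, Cd79b and Fcer2a, and summed to 15.6, 17.6 and 16.3 CPM. Cd79a, a chain of the B cell receptor, had 71, 29 and 30 counts, and Pax5, the B lineage factor, had 1, 19 and 19. Cd79a was thus highest in replicate 1, where Pax5 was lowest.

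Immunoglobulin genes took more of the counts than B cell genes did. Summed over 427 annotated immunoglobulin genes they reached 2380, 626 and 636 CPM, or 0.238%, 0.0626% and 0.0636% of the counts. Igha, the constant region of IgA, stood at 732, 112 and 139 CPM. Igkc, the kappa constant region, was at 668, 131 and 147 CPM. Ighm, the constant region of IgM, was more even, at 283, 185 and 168 CPM. Ighg2c differed most, at 40.6, 0.566 and 2.19 CPM. Other constant genes went the other way: of the 8 detected, 5 were highest in replicate 1 and 3, namely Ighg1, Ighg3 and Iglc3, were lowest there, with Ighg1 at 16.5, 27.2 and 24.4 CPM. Jchain, which joins IgA and IgM units and is made by antibody-secreting cells, was at 157, 28.2 and 30.4 CPM. Of the 10 plasma cell genes 7 were detected, 4 of them highest and 1 lowest in replicate 1, at a median ratio of 1.03. Tnfrsf13b (46.0, 46.9 and 42.8 CPM), Creld2 and Irf4 were even, and Prdm1 was lowest in replicate 1, at 29.1, 31.4 and 38.0 CPM. The 3 that were not detected were highest in replicate 1, Mzb1 with 8, 1 and 1 counts, Tnfrsf17 with 10, 2 and 2, and Derl3 with 14, 7 and 4. Xbp1 (246, 225 and 212 CPM), which monocytes also express, made up much of the 527, 375 and 368 CPM that the 10 plasma cell genes summed to.

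The variable segments differed between libraries as well. Of 218 annotated segments, 186, 133 and 132 had counts in replicates 1, 2 and 3. The leading segment was Ighv3-6 with 4.28% of the variable-segment counts in replicate 1, Igkv10-96 with 9.74% in replicate 2 and Igkv6-23 with 7.91% in replicate 3. The 10 leading segments held 27.6%, 45.4% and 40.0% of those counts. Replicate 1 had 20249 variable-segment counts against 4509 and 4587, so more segments could be seen there. Segments of 1 family resemble each other, and reads of 75 nt can pass between them.

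Granulocyte genes were unequal between types and libraries. Of 15 neutrophil genes 13 were detected, summing to 694, 716 and 754 CPM, but several of them (Csf3r, S100a8, S100a9 and Mmp8) are also known in monocytes, and Ly6g, the defining neutrophil marker, had 3, 9 and 14 counts. Of the neutrophil list, only Csf3r (236, 219 and 228 CPM) stood above Cd177, which was at 176, 199 and 201 CPM. Ngp, a granule protein of developing neutrophils, was at 26.0, 47.0 and 55.7 CPM, lowest in replicate 1. Of the 13 detected neutrophil genes 9 (69.2%) were lowest and 3 (23.1%) highest in replicate 1, at a median ratio of 0.858. For all detected genes the shares were 39.8% and 40.0%. Basophil and mast cell genes were detected for 8 of 9 and summed to 423, 262 and 202 CPM. Prss34, a basophil protease, stood at 200, 113 and 85.2 CPM, and Mcpt8, another basophil protease, at 90.2, 49.1 and 34.7 CPM. Gata2, Ms4a2 and Cpa3 had ratios of replicate 1 to the mean of the others of 1.85, 1.86 and 1.84, whereas Hdc, which makes histamine, was even, at 43.8, 46.0 and 44.0 CPM. Eosinophil genes were detected for 1 of 6.

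Dendritic cell genes were detected for 7 of 10 of the conventional and 4 of 8 of the plasmacytoid list, at 142 to 162 and 12.4 to 17.9 summed CPM. Flt3 stood at 32.1, 35.4 and 29.4 CPM and Cd209a at 22.8, 34.5 and 30.2 CPM. Of 12 genes of tissue macrophages 2 were detected, and Adgre1, the F4/80 antigen that monocytes also carry, made up nearly all of their sum at 294, 274 and 283 CPM. Platelet and megakaryocyte genes were detected for 2 of 13, Itgb3 and Itga2b, and summed to 26.9, 27.6 and 24.5 CPM. Pf4, a platelet granule chemokine, had 18, 14 and 9 counts. Erythroid genes summed to 11.5 to 14.6 CPM, with Hbb-bs at 165, 143 and 211 counts. None of the 7 endothelial genes was detected. Col1a1 and Col1a2, fibroblast collagens, were low and uneven, at 46, 75 and 210 and at 50, 125 and 242 counts.

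**Figure D3:**
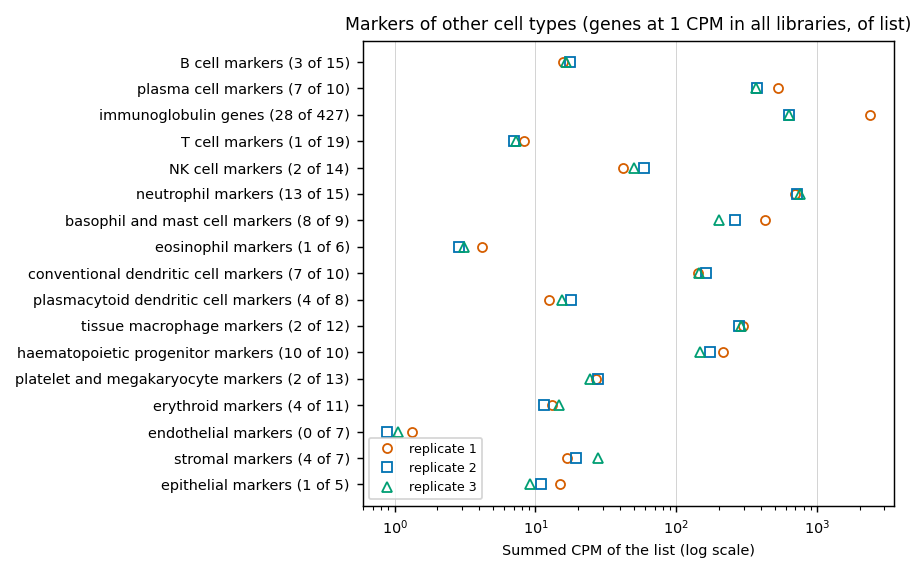
Summed CPM (log axis) of markers of other cell types in the 3 control libraries, with the number of genes at 1 CPM or more in all libraries out of the list. Replicate 1 stands apart for immunoglobulin genes (2380 against 626 and 636 CPM) and is highest for basophil and mast cell genes. The sums of B, T and platelet markers differ little, which does not hold for each member.

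The 3 libraries were close to each other, and replicate 1 was the one that differed most. Over detected genes the median coefficient of variation (CV) of TMM-scaled CPM was 4.88%, where counting alone would give 2.85%. It fell from 9.79% at 1 to 10 CPM, near the counting value of 8.41%, to 3.17% above 1000 CPM, where counting gives 0.434%. The edgeR common dispersion came to 0.00519, whose square root, the biological CV, is 0.0720. Without replicate 1 it was 0.00105 (0.0323), without replicate 2 0.00892 (0.0945) and without replicate 3 0.00627 (0.0792). Chi-square per gene between pairs was 21.6 for replicates 1 and 2, 30.2 for 1 and 3 and 5.49 for 2 and 3, so no pair agreed within counting noise. Differences of 1.5-fold or more were found for 68, 88 and 8 of 8360 genes at 10 CPM or more in those pairs. With the 3 values of a gene sorted on the log scale, the library beyond the wider gap was replicate 1 in 51.0% of detected genes, replicate 2 in 21.7% and replicate 3 in 27.3%. Among genes at 100 CPM or more it was replicate 1 in 61.9%.

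**Figure D4:**
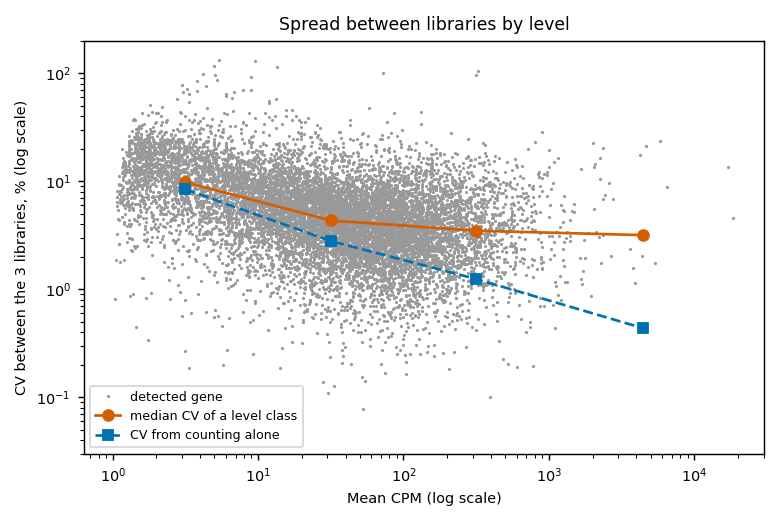
CV between the 3 control libraries (percent, log axis) against mean CPM (log axis) for each detected gene, with the median of each level class in orange and the value from counting alone in blue. The 2 lines are close at 1 to 10 CPM (9.79% and 8.41%) and far apart above 1000 CPM (3.17% and 0.434%).

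Few genes stood 2-fold from both other libraries. At a mean of 10 CPM or more, 8361 genes were considered, and 6 were above in replicate 1, among them Ighg2c, Iglc1, Igha, Jchain and Igkc. Ighg2c was also below in replicate 2, and Igkv10-96 was below in replicate 3. At 1.5-fold replicate 1 had 24 genes above and 27 below, replicate 2 had 0 and 3, and replicate 3 had 5 and 1. The genes above in replicate 1 at 1.5-fold included the basophil genes Prss34, Mcpt8, Gata2, Ms4a2 and Cpa3, and those below included Csf1, mt-Nd5 and Ngp.

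Replicate 1 also differed by whole groups in the same direction. Over all detected genes it was the highest library in 4417 and the lowest in 4395 of 11051, a balance that the TMM scaling itself favours. Ribosomal protein genes were highest there in 59 and lowest in 7 of 80, and the tricarboxylic acid cycle list highest in 18 and lowest in 1 of 26. Both differences were small, at a median ratio of 1.04 for each list. Basophil and mast cell genes were highest in 7 of 8, at a median ratio of 1.86, and mitochondrially encoded genes were lowest in 9 of 11, at 0.784. Gene length, looked at after these values were seen, moved with the same difference. In the fifth of detected genes with the shortest exons, up to 2477 bases, the median ratio of replicate 1 to the mean of the others was 1.04 and 64.8% of genes were higher in replicate 1. In the fifth with the longest, from 7558 bases, the ratio was 0.954 and 30.1% were higher. The trend with length was not confined to replicate 1. The median log2 ratio of replicate 2 to replicate 3 fell from 0.0248 at up to 2477 bases to -0.0158 from 7558 bases. That of replicate 1 to the mean of the others fell further, from 0.0501 to -0.0682. The part of length in the group differences was not tested. The detected ribosomal and respiratory chain genes had median exon lengths of 1806 and 1587 bases, the cholesterol genes 4321 bases and the nonclassical genes 3590 bases. Mitochondrially encoded genes and the MHC class II list, both mostly lowest in replicate 1, had shorter medians of 1038 and 2572 bases.

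**Figure D5:**
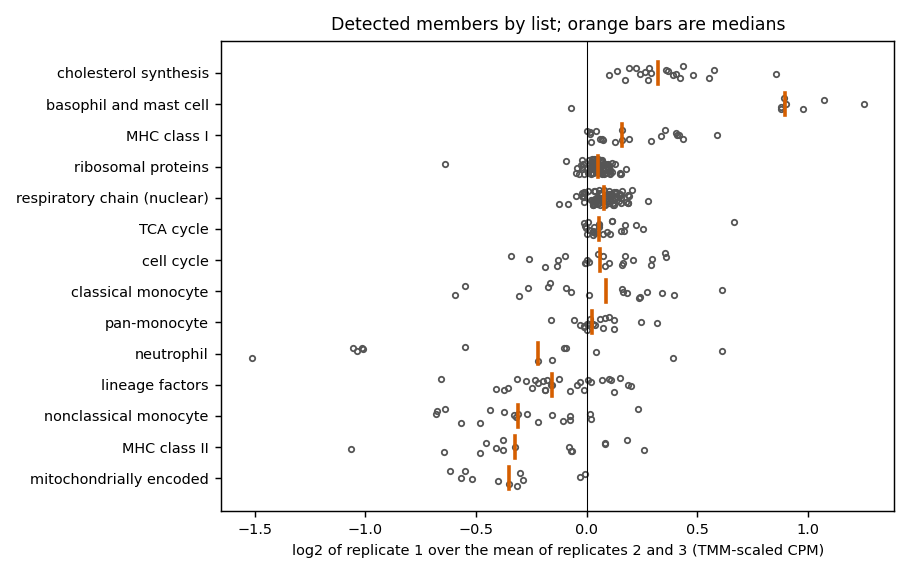
Log2 ratio of replicate 1 to the mean of replicates 2 and 3 (TMM-scaled CPM) for each detected member of 14 lists, with the list median as an orange bar and a line at no difference. All cholesterol genes lie above the line, most members of the nonclassical and MHC class II lists below it, and pan-monocyte genes around it.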

How the data were processed

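The authors deposited raw counts of reads per gene symbol for each library, not normalised; the 3 control tables were used and the 6 of the platelet groups were not. Tools listed in the submitters' processing notes, with no role, are Salmon 1.3.0, Subread 2.0.1, featureCounts, STAR 2.7.6a and fastp 0.20.1. The genome build, annotation and strand setting of the counting were not given in the sources used here, so antisense and overlapping genes are uncertain. Symbols were matched to GENCODE M21 (53186 of 55367 matched 1 gene), which gave lengths and biotypes. CPM is counts per 1000000 of the library total, and RPKM is CPM per kilobase of joined exons. TMM factors (1.02, 0.997 and 0.987) and the common dispersion, with an intercept only, came from edgeR 4.0.16, and the size factors of the alternative from DESeq2 1.42.0. The dispersion step was tested on simulated data. CVs and the genes apart used TMM-scaled CPM. Motifs were searched on both strands. With 1 group there was no comparison between groups and no test.

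Named genes are the 25 with the highest mean CPM, up to 6 leading members of each of 43 lists (768 genes; 1 matched no symbol) and members under 0.1 CPM in all libraries, up to 8 genes per library that stood 2-fold or more from both others at a mean of 10 CPM, the 10 leading immunoglobulin genes, and 31 genes named whatever their values. Other list members, and the genes at 1.5-fold, were named after their values were seen. The members and lists were chosen with earlier results of these data known. Alternatives were other library sizes, detection limits, filters and gene lengths, and leaving out each library. Floors reflect counting error alone, as PCR copies of a molecule cannot be told apart. Some genes that the rule names are not reported here.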

Additional observations from a re-analysis of the deposited data

How the results depend on the processing

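Of 525 alternative values over 112 results, 498 stayed within 1 SD of the reported value or, for counts and dispersions, within 1.5 times of it. Of the 525, 243 left out 1 library, and 2 of these moved. A level without 1 of the 3 libraries cannot lie over 1 SD from the mean of all 3. Those levels could not have moved, so the 498 does not show that they are stable. Other denominators (TMM, DESeq2 size factors, or a total without mitochondrially encoded and immunoglobulin genes) changed the levels by factors of 0.990 to 1.02. The longest transcript in place of joined exons moved the RPKM of 14 of 29 genes by over 1 SD. Without mitochondrially encoded genes the 100 leading genes held 19.5% of the counts. The 8 cases of a library 2-fold from both others became 60 at 1.5-fold, 153 at a minimum of 1 CPM and 2 without immunoglobulin genes. With 1 library left out the common dispersion ranged from 0.00105 (without replicate 1) to 0.00892 (without replicate 2), and the number of detected genes from 11120 to 11151. The summed immunoglobulin level, 1214 CPM over the 3 libraries, was 631 CPM without replicate 1. Genes apart from both others cannot be counted with 2 libraries. No paired analysis was possible because the control libraries form 1 group and no result comes from a test. Genes at fewer than 3 counts are not told from absence at this depth.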

Other observations

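Ddx3y, a Y-linked helicase, stood at 107, 109 and 114 CPM in replicates 1, 2 and 3, and Xist, the RNA of the inactive X chromosome, had 0 counts in all 3 libraries. The labels used here do not give the sex of the animals.

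Some genes were noticed after their values were seen. The 5 genes that stood 1.5-fold above both other libraries in replicate 3 were Egr1, Il1rn, Nr4a3, Ptgs2 and Slfn4, of which Egr1 and Nr4a3 are immediate-early factors and Ptgs2 makes prostaglandins. The 27 genes that stood 1.5-fold below both others in replicate 1 held Nr4a2, Nr4a3, Cd83, Ccl22 and Csf1, so Nr4a3 was lowest in replicate 1 and highest in replicate 3.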
